A study of Mus musculus with 4 samples.

Results

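ATAC-seq accessibility at the promoters of the cytosolic ribosomal protein genes was measured in bone mesenchymal stem cells (MSCs) of old and young mice. The promoters were the autosomal peaks lying within 1 kb of a protein-coding transcript start (GENCODE vM21, GRCm38) of a gene whose symbol is Rpl or Rps followed by digits with an optional a or x, or is Rplp0, Rplp1, Rplp2 or Rpsa. The Rps6k kinases were left out, and the choice used no measured value. Of 76 genes with such a symbol, 72 lie on autosomes, and all 72 had at least 1 peak. Rpl10, Rpl36a, Rpl39 and Rps4x, on the X chromosome, fell outside the rule. The result was 74 peaks, out of 15725 autosomal promoter peaks of protein-coding genes and 117282 peaks in all. Rpl3, Rps10 and Rps14 had 2 peaks each, called upstream and downstream here in the direction of transcription.

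In ATAC-seq, a transposase inserts sequencing adapters into open DNA, and the fragments recovered at a site report how accessible its chromatin is. The series held 2 samples of MSCs from old mice (18 to 22 months) and 2 of MSCs from young mice (3 to 5 months), which the labels do not tie to separate animals. All were grown at 2% O2 in αMEM with FBS, penicillin and streptomycin. The paper's methods describe MSCs from hind-limb bone of wild-type male C57BL/6N mice, sorted as CD45-/TER-119-/Sca-1+/CD140a+ cells; the strain and sex of the old mice were not given in the sources used here. P-values below therefore measure only the spread between these 4 samples.

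The deposited values were whole multiples of 1 step per sample (100% of values, within 0.001 of a step), which gave library totals between 28259470 and 32559794 counts if the values are per 10000000 counts, the scale being inferred. They were not divided by peak length, so levels are given as density, the deposited value per kb of peak. For old against young, values were divided by RLE factors (0.817 and 1.01 in old samples 1 and 2, 1.07 and 1.15 in young samples 1 and 2) and are called scaled values. Promoter peaks were found for all the mesenchymal markers examined (Pdgfra, Ly6a, Prrx1, Thy1, Cd44, Eng and Nt5e), with a median density of 18.2. The median was 21.6 for the blood, 16.3 for the endothelial and 9.39 for the epithelial list, and 27.4 over all autosomal promoter peaks. Among blood markers, Spi1, Csf1r and Cd68 (a peak shared with Eif4a1) had peaks and Ptprc and Cd3e had none, and the endothelial and epithelial markers Pecam1, Tek, Kdr and Epcam had peaks and Cdh5 and Cdh1 none. The summed density of the mesenchymal marker peaks was 93.8 and 132 in the old and 122 and 125 in the young samples. That of the 4 endothelial marker peaks (Tek, Kdr and a pair at Pecam1) was 51.8 and 68.0 in the old and 72.4 and 79.4 in the young samples, so both old samples were below both young ones. That of Spi1, Csf1r and Cd68 was 49.1 and 80.0 in the old and 83.8 and 76.2 in the young samples, with old sample 1 the lowest. Over all 4 peaks of the blood marker list it was 63.5 and 97.1 in the old and 110 and 104 in the young samples. There, too, both old samples were below both young ones. All these sums are of deposited values, which were lower in old MSCs over all peaks (median log2 fold change -0.27). On scaled values, the median density of the mesenchymal peaks was 18.0 and 19.7 in the old and 16.5 and 14.3 in the young samples. For the endothelial peaks it was 15.4 and 16.6 against 14.2 and 16.3, and for the blood list 17.6 and 21.9 against 22.4 and 22.3. The part of these differences in the results was not tested. An open promoter is not a measure of expression, and the makeup of the cultures was not tested.

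Each ribosome is built from a small subunit, which reads the mRNA, and a large subunit, which forms the peptide bonds. Their proteins are needed in near equal numbers and are encoded by single-copy genes scattered over the genome, whose promoters are open in nearly all growing cells. Many of these genes start transcription within a run of pyrimidines, and the resulting terminal oligopyrimidine tract of the mRNA lets mTOR signalling set its translation.

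The start-site sequences show what these promoters share apart from their name. RefSeq windows (GRCm38.p6) were found for 52 of the 72 genes, and the following run from 60 bases before the start to base 15 after it, 5′ to 3′ on the gene's strand. Capitals mark the longest run of C and T that comes within 5 bases of the start. The first group has long runs.
Rps6, chr4:86857353-86857427, minus strand: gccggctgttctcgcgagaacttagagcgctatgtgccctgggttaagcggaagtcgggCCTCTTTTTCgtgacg
Rpl15, chr14:18270972-18271046, minus strand: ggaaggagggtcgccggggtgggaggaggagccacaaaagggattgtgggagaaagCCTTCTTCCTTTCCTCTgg
Rpl35, chr2:39005117-39005191, minus strand: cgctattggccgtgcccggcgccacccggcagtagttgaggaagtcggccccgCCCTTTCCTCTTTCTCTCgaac
Rpl7a, chr2:26910747-26910821, plus strand: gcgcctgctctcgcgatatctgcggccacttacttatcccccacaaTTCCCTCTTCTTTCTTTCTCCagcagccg
Rplp2, chr7:141447591-141447665, plus strand: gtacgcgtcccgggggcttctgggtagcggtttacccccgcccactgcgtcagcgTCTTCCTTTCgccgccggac
Rpl27a, chr7:109519135-109519209, plus strand: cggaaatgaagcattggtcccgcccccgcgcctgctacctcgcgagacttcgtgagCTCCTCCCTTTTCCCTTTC

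The second group, at the starts as RefSeq annotates them, has short runs.
Rpl37, chr15:5116553-5116627, plus strand: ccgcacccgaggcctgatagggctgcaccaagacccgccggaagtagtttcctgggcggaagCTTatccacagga
Rps19, chr7:24884532-24884606, plus strand: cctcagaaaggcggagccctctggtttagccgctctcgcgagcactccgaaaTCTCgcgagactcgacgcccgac
Rpl5, chr5:107900468-107900542, plus strand: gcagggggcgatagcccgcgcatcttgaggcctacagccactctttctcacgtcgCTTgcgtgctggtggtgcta
Rpl22, chr4:152325666-152325740, plus strand: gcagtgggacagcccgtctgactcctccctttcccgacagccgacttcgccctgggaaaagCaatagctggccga

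A run of at least 8 pyrimidines lay at the start of 19 of the 52 genes (36.5%), against 9.42% of 16457 protein-coding genes with a window and 9.51% of the 11411 of them with a promoter peak in this table. The longest runs were the 21 bases of Rpl7a and the 20 of Rpl27a, of which the last lies past the end of the stretch printed above. The letters CGGAAG, the core to which ETS factors such as GABP bind, occurred on either strand of the 300-base window (250 before the start and 50 after) in 36 genes (69.2%). This share was 21.9% of all the genes and 28.5% of those with a promoter peak. CTCGCGAG, which reads the same on both strands, occurred in 6 genes (11.5%), namely Rpl12, Rpl26, Rpl27a, Rps6, Rps19 and Rps28, against 1.28% and 1.74%. AAGATGG, part of the YY1 motif, occurred in 15.4% against 6.42% and 6.75%.

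Other promoter elements were not more frequent than at open promoters. GGGCGG, the box bound by Sp1, occurred in 57.7% of the ribosomal protein windows and in 62.3% of the windows of genes with a promoter peak. CCAAT occurred in 30.8% against 37.8%, and the E-box CACGTG in 9.62% against 9.67%. TATAAA occurred in 3 windows (Rplp0, Rps2 and Rps28), in none of them between 40 and 16 bases before the start, where 1.57% of the genes with a promoter peak had it. The median ratio of observed to expected CpG was 0.917, against 0.741 for genes with a promoter peak. A match is a run of letters and not a bound site, and RefSeq starts can lie some bases from the start used in these cells.

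All but 1 of the 74 peaks held an annotated start of their own gene, the exception being the upstream Rps10 peak, 532 bp from the nearest. The peaks lay on 18 of the mouse autosomes, with 13 on chromosome 7 and 7 on chromosome 11. Their width ran from 700 bp at the upstream Rps10 peak to 37100 bp at Rps16, with a median of 3150 bp, against 2600 bp for all autosomal promoter peaks. Peaks over 5 kb made up 32.4% of the ribosomal protein promoters (24 peaks) and 16.7% of all promoter peaks, and peaks over 10 kb 16.2% (12 peaks) and 4.41%. The 5 widest were those of Rps16, Rpl27a (34000 bp), the upstream Rps14 peak (21400 bp), Rpl18 (21300 bp) and Rps15a (20100 bp). The peak covered the whole gene at 21 members, and the median member covered 57.7% of its gene.

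The median density of the 74 peaks was 31.2, against 27.4 over all autosomal promoter peaks, and 50 of 74 were above the median promoter. Only 9 were above the 90th percentile of promoters by density, while 21 were above it by width. In single samples, the median density was 24.1 and 35.4 in old samples 1 and 2 and 34.1 in both young samples, and over all promoter peaks it was 20.6, 28.8, 29.3 and 30.3. Old sample 1 was thus the lowest in both sets as deposited. The 74 peaks made up 0.471% of promoter peaks and 0.814% of their width, and held between 0.782% and 0.858% of the promoter signal in each sample.

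**Figure D1:**
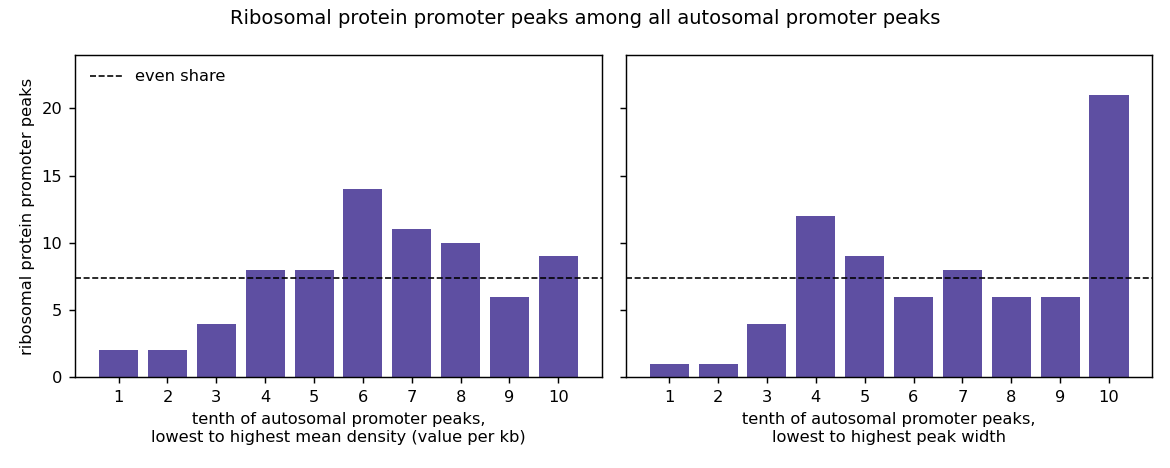
Ribosomal protein promoter peaks counted in 10 bins with equal numbers of the autosomal promoter peaks, ordered by mean density of the 4 samples (left) and by peak width (right). The dashed line is the even share of 7.4 peaks; 9 peaks fall in the densest bin and 21 in the widest.

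Density ran from 7.15 to 104 among the members. The densest promoter was that of Rps29 (chr12:69157801-69160300), a small-subunit protein mutated in some families with Diamond-Blackfan anaemia, a failure of red cell production. Its densities were 78.0 and 92.9 in old samples 1 and 2 and 119 and 128 in young samples 1 and 2. Among all autosomal promoter peaks its mean density stood at percentile 99.1. Rpl37 (chr15:5114901-5117900), a large-subunit protein, had a mean density of 78.9, and Rps19, the gene most often mutated in Diamond-Blackfan anaemia, had 74.2.

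At the other end stood the upstream Rpl3 peak with a mean density of 7.15 and the upstream Rps10 peak with 9.62, each a second peak of a gene with a denser one. The downstream peaks of these genes had 20.5 and 29.9. Among genes with 1 peak, Rpl8, a core protein near the peptidyl transferase centre, was lowest with a mean of 12.5, followed by Rps15, near the decoding site, with 13.1. Rpl8 gave 9.79 and 14.5 in the old samples and 11.7 and 13.9 in the young samples, so that even its highest sample was far below the lowest sample of Rps29. Rpl8 and Rps15 differed by less than the spread between their samples.

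The scaled values of the 74 peaks followed each other closely from sample to sample. On the log2 scale, Pearson's r across the 74 peaks was 0.990 between the young samples, 0.976 between the old samples and between 0.978 and 0.989 between old and young samples. The points share peak widths, which set most of the value (r = 0.83 between log2 value and log2 width), so these are descriptions only. The counts behind a value ran from 14 to 6706 with a median of 383.5, and 68 of the 74 peaks had at least 100 counts in every sample.

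**Figure D2:**
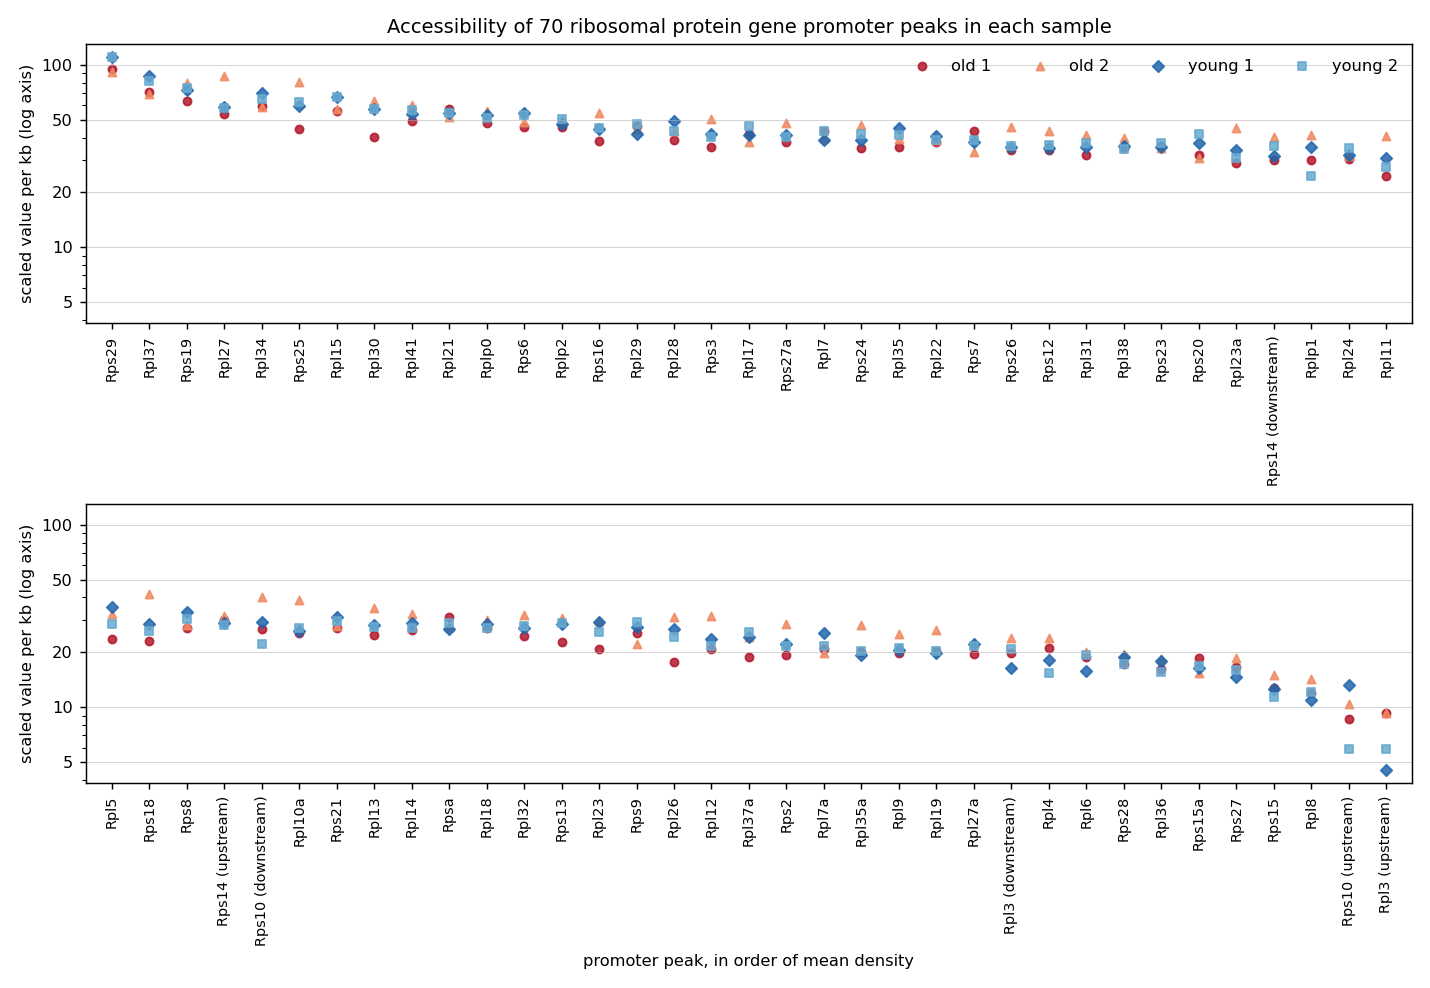
Scaled value per kb (log axis) of 70 of the 74 promoter peaks in the 4 samples, in order of mean density over both rows. The order shown is led by Rps29, the 4 samples lie close together at most peaks, and old sample 2 is apart from the other 3 at several (Rpl27, Rps18).

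No ribosomal protein promoter passed the test for a difference between old and young MSCs. limma with Benjamini-Hochberg adjustment over 117282 peaks called 0 of 74 at an adjusted p under 0.01, where it called 66 of all peaks (0.0563%) and 5 promoter peaks as higher and 1 as lower. limma-voom on the recovered counts also called 0 members, where it called 34 of all peaks (0.0290%). At an unadjusted p under 0.05, 1 of the 74 was higher in old MSCs and 1 lower, against 7.49% and 8.87% of all peaks. Both old samples were above both young samples at 5 members (6.76%), where this held for 23.2% of all peaks and for 2516 promoter peaks. Both were below at 15 members (20.3%), against 24.2% of all peaks and 3960 promoter peaks. A single value compared 2 against 2 cannot go below p = 0.33 in an exact permutation test.

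The fitted differences were small. The median log2 fold change was 0.022, with an interquartile range from -0.12 to 0.11, against -0.023 over promoter peaks and 0.0011 over all peaks. It was above 0.5 in size at 1 member (1.35%) and at 7.99% of promoter peaks. The median standard error was 0.17 for the members and 0.19 for promoter peaks. On the values as deposited the median of all peaks moved to -0.27 and that of the members moved with it, also to -0.27, and 71 of 74 members were then lower in old MSCs. All changes given here are relative to that shift.

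The old samples differed from each other more than the young samples did. The median gap between the old samples was 0.265 on the log2 scale at the members, against 0.093 between the young samples, and it was the larger at 52 of 74 members. The same gaps were 0.253 and 0.126 over all autosomal promoter peaks and 0.312 and 0.214 over all peaks. Old sample 1 was below old sample 2 at 59 members after scaling. Without old sample 1 the median log2 fold change of the members was 0.14, and without old sample 2 it was -0.13. Members that limma called without old sample 1 included Rpl12, Rps16, Rpl23a, Rpl27, Rpl10a and Rps18 as higher and Rps9 as lower. Without old sample 2, limma called Rps16 lower instead. In these fits the lone old sample is assumed to vary as the young samples do, so the calls are not counted.

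Rps16 shows this most plainly. Its 37.1 kb peak (chr7:28347501-28384600), which also holds the starts of Plekhg2 and Zfp36, had scaled values of 1418 and 2034 in old samples 1 and 2 and of 1662 and 1677 in young samples 1 and 2. The young values were nearly equal, and the old values lay on either side of them. The log2 fold change was 0.025 ± 0.12 (SE) over the 4 samples, 0.28 without old sample 1 (limma, adjusted p = 6.68e-06) and -0.23 without old sample 2 (limma, adjusted p = 0.00756).

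Other peaks called higher without old sample 1 had the same form. Rpl10a is described with its subunit. Rpl12 had scaled values of 202 and 308 in old and 229 and 210 in young samples. Rpl23a had 250 and 386 against 294 and 267, and Rpl27 had 80.5 and 131 against 88.1 and 87.4. Old sample 2 was above both young samples at each of these 3 peaks, and old sample 1 was below both. Rps18 had 71.5 and 130 against 89.1 and 80.9, again with old sample 2 highest and old sample 1 lowest. Over all 4 samples their log2 fold changes were between 0.15 and 0.22, and limma gave adjusted p-values between 0.623 and 0.740.

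**Figure D3:**
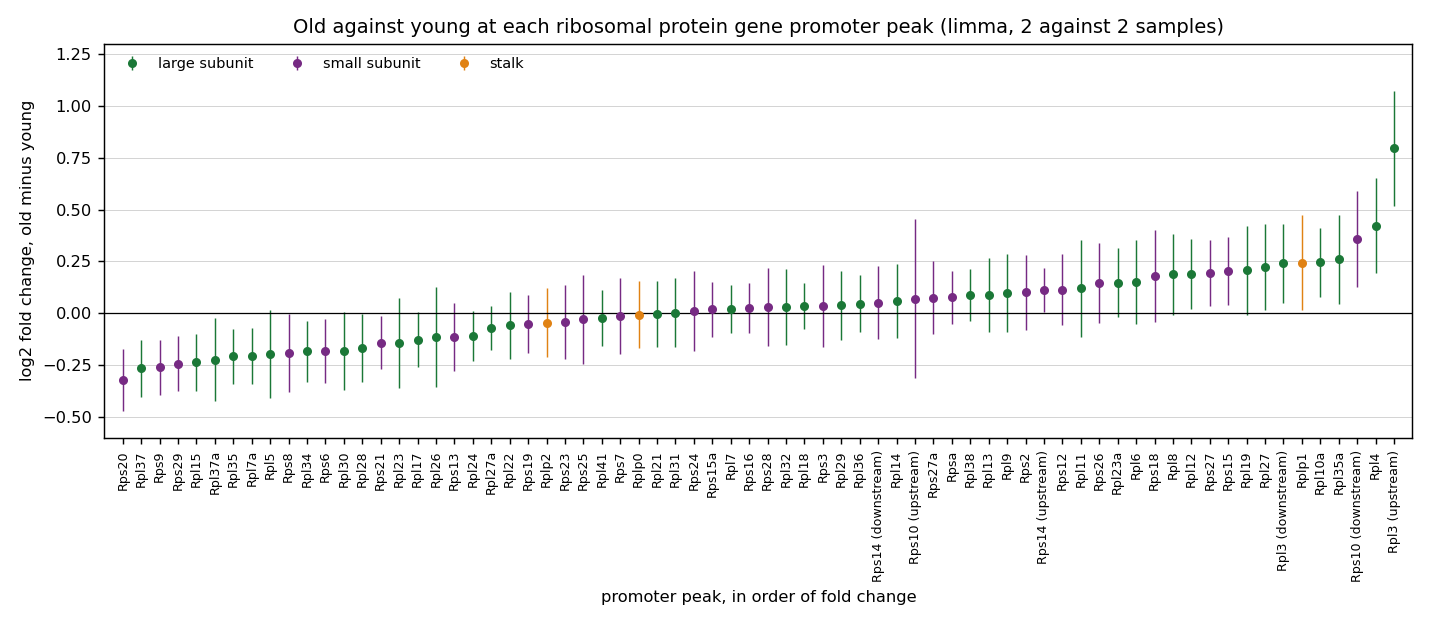
Log2 fold change, old minus young, with its standard error for 70 of the 74 promoter peaks in order of size, coloured by subunit. Both subunits are spread over the whole range, and the upstream Rpl3 peak at 0.80 is apart from the rest.

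Among the large-subunit promoters, the 40 peaks outside the stalk had a median log2 fold change of 0.025, with 18 lower in old MSCs. The largest rise was at Rpl3, whose protein reaches to the peptidyl transferase centre. Its upstream peak (chr15:80091001-80093200), at the start of a longer annotated transcript and also within 1 kb of the Syngr1 start, had scaled values of 20.5 and 20.3 in old and 9.90 and 13.0 in young samples. The groups did not overlap, and the log2 fold change was 0.80 ± 0.28 (limma, adjusted p = 0.153). The value rests on 48 and 67 counts in the old and 30 and 44 counts in the young samples. The downstream Rpl3 peak, at the start of the main transcript, had 85.2 and 103 against 70.3 and 89.5, and here the groups overlapped (0.24 ± 0.19).

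Rpl4 (chr9:64172301-64173900, a peak that also holds the Zwilch start), whose protein lines the exit tunnel of the nascent chain, had scaled values of 33.8 and 38.5 in old and 29.0 and 24.5 in young samples. Both old samples were higher, with a log2 fold change of 0.42 ± 0.23 (limma, adjusted p = 0.374). Rpl35a, mutated in some families with Diamond-Blackfan anaemia, had 46.2 and 64.9 against 44.6 and 46.7 (0.26 ± 0.22). Rpl10a, in a mobile stalk of the large subunit, had 226 and 342 against 230 and 239 (0.25 ± 0.17). At both, old sample 2 was above all others and old sample 1 was within or near the young range, so the groups overlapped.

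The largest falls of the large subunit were at Rpl37, with 212 and 208 in old and 261 and 245 in young samples (-0.27 ± 0.14), and at Rpl15, with 202 and 207 against 241 and 241 (-0.24 ± 0.14). The groups did not overlap at either. The adjusted p in limma was 0.345 for Rpl37 and 0.409 for Rpl15. Rpl38, known for its part in the translation of Hox mRNAs, had 348 and 395 against 354 and 343 (0.088 ± 0.13). Rpl22, which has a close paralogue in Rpl22l1, had 110 and 112 against 118 and 113, a difference of -0.058 ± 0.16 although the groups did not overlap.

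Rpl5 and Rpl11 form, with 5S rRNA, the particle that binds Mdm2 and so lets p53 accumulate when ribosome assembly is disturbed. Rpl5 had scaled values of 47.1 and 64.9 in old and 71.0 and 57.0 in young samples (-0.20 ± 0.21). Rpl11 had 42.0 and 69.5 against 52.5 and 46.9 (0.12 ± 0.23). The groups overlapped at both, and the estimates lay on either side of 0, each within 1 standard error of it.

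The 3 stalk proteins, which recruit the translation factors to the large subunit, had mean densities of 52.9 for Rplp0, 49.3 for Rplp2 and 33.2 for Rplp1. Rplp0 had scaled values of 119 and 140 in old and 133 and 128 in young samples (-0.0078 ± 0.16). Rplp2 had 100.2 and 109.8 against 104.9 and 111.6 (-0.045 ± 0.17). Rplp1 had 47.9 and 66.1 against 56.8 and 39.6 (0.24 ± 0.23). The groups overlapped at all 3.

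Among the small-subunit promoters, 30 peaks had a median log2 fold change of 0.022, with 13 lower in old MSCs. The largest fall of all members was at Rps20 (chr4:3831701-3836500), mutated in some families with hereditary bowel cancer, with scaled values of 154 and 148 in old and 179 and 200 in young samples. The groups did not overlap, and the log2 fold change was -0.32 ± 0.15 (limma, adjusted p = 0.291). Rps9, near the mRNA entry site, had 290 and 252 against 314 and 335 (-0.26 ± 0.13). Rps29, the densest promoter, had 239 and 229 against 278 and 277 (-0.24 ± 0.13). The old samples were below both young samples at each of these, and limma gave adjusted p-values of 0.338 for Rps9 and 0.375 for Rps29.

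Rps10, on the beak of the small subunit, had the largest rise of the small subunit at its downstream peak, with 45.8 and 68.3 in old and 49.8 and 37.8 in young samples (0.36 ± 0.23, groups overlapping). Its upstream peak rested on 14 and 24 counts in the old and 28 and 14 in the young samples, which cannot show a change of this size (0.070 ± 0.38). Rps14, the gene lost in the 5q- syndrome of the marrow, had 642 and 675 against 616 and 603 at its upstream peak, shared with Ndst1 (0.11 ± 0.11), with no overlap. Its downstream peak had 108 and 146 against 114 and 129 (0.051 ± 0.18).

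Rps6, which the S6 kinases phosphorylate downstream of mTOR, had 128.0 and 136.5 in old and 151.8 and 148.5 in young samples. Both old samples were lower (-0.18 ± 0.16, limma adjusted p = 0.596). Rps19 had 259 and 328 against 299 and 306 (-0.052 ± 0.14). Rpsa, also known as the laminin receptor, had 361 and 318 against 311 and 332 (0.076 ± 0.13). Rps27a, made as a fusion to ubiquitin, had 95.0 and 120.1 against 102.6 and 100.1 (0.076 ± 0.18). The groups overlapped at Rps19, Rpsa and Rps27a.

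The 17 promoter peaks of genes mutated in Diamond-Blackfan anaemia had a median log2 fold change of 0.010, against 0.025 for the other 57. None of the 17 had an unadjusted p under 0.05, and the groups did not overlap at 1 with old higher (5.88%) and at 2 with old lower (11.8%). Over all peaks an unadjusted p under 0.05 was reached by 7.49% with old higher and 8.87% with old lower, and the groups did not overlap at 23.2% and 24.2%. Peaks of the 19 genes with a pyrimidine run of at least 8 had a median of 0.019 and those of the 33 genes without had 0.0029. With and without CGGAAG the medians were 0.011 and 0.023. The median densities were 29.9 with and 30.7 without the run, and 30.2 with and 30.3 without CGGAAG.

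Denser promoters tended to be lower in old MSCs. Across the 74 peaks, the log2 fold change had a Pearson's r of -0.53 and a Spearman's rho of -0.45 with log2 density, and across all promoter peaks r = -0.29 and rho = -0.36. Both measures come from the same libraries and density includes the samples compared, so the relation is a description. With log2 width, r was -0.081 at the members.

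Ribosomal protein promoter peaks reached the starts of other genes more often than promoter peaks in general did. A wider peak can reach more starts, and the part of peak width in this was not tested. At 27 members (36.5%) the peak came within 1 kb of the starts of at least 2 protein-coding genes, against 10.2% of all promoter peaks. For 26 of these the other gene was no ribosomal protein gene of the rule, as with Rpl4 and Zwilch, Rps15 and Apc2, and Rpl7a with Surf1, Surf2 and Med22. They include the downstream Rps10 peak, whose only other annotated gene, RPS10-NUDT3, carries the name of Rps10 and may not be a separate neighbour. The 26 had a median width of 7200 bp and a median log2 fold change of 0.082, and 7 were lower in old MSCs. The other 48 had a median width of 2800 bp and a median log2 fold change of -0.011, and 26 were lower. The median width was 3100 bp over all promoter peaks of at least 2 genes and 2500 bp over those of 1 gene. The 5 members with both old samples above both young ones (the upstream Rpl3 peak, Rpl4, Rps15, Rps27 and the upstream Rps14 peak) were all among the 26 (19.2%). Both old samples were lower at 4 of the 26 (15.4%). In the 48, old samples were both lower at 11 members (22.9%) and both higher at 0. Over all promoter peaks, both old samples were lower at 427 of the 1598 with at least 2 genes (26.7%) and at 3533 of the 14127 with 1 gene. Both old samples were higher at 10.1% of those with at least 2 genes and at 16.7% of those with 1 gene. The share of such a peak that belongs to the ribosomal protein gene cannot be told apart from that of its neighbour.

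The median density of the 48 peaks without a neighbouring start was 34.2, against 26.0 for all promoter peaks of 1 gene. For the 26 with a neighbour it was 29.9, against 38.8 for all promoter peaks of at least 2 genes. snoRNAs, which guide the modification of rRNA, are encoded in the introns of 26 of the ribosomal protein genes. The 27 peaks of these host genes had a median density of 29.4 and a median log2 fold change of 0.025, and the 47 others 33.2 and 0.019.

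Ribosomal proteins have left many processed pseudogenes in the genome. Of 254 autosomal pseudogenes annotated with a ribosomal protein name, 40 (15.7%) had a peak within 1 kb of their start, and 34 (13.4%) had one that was no promoter peak of a coding gene. Of all 20807 autosomal protein-coding genes, 69.0% had a peak within 1 kb of the gene start. All 72 ribosomal protein genes had a peak within 1 kb of any of their protein-coding transcript starts, a looser measure. Reads that match several copies can be lost or misplaced at either kind of locus.

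**Figure D4:**
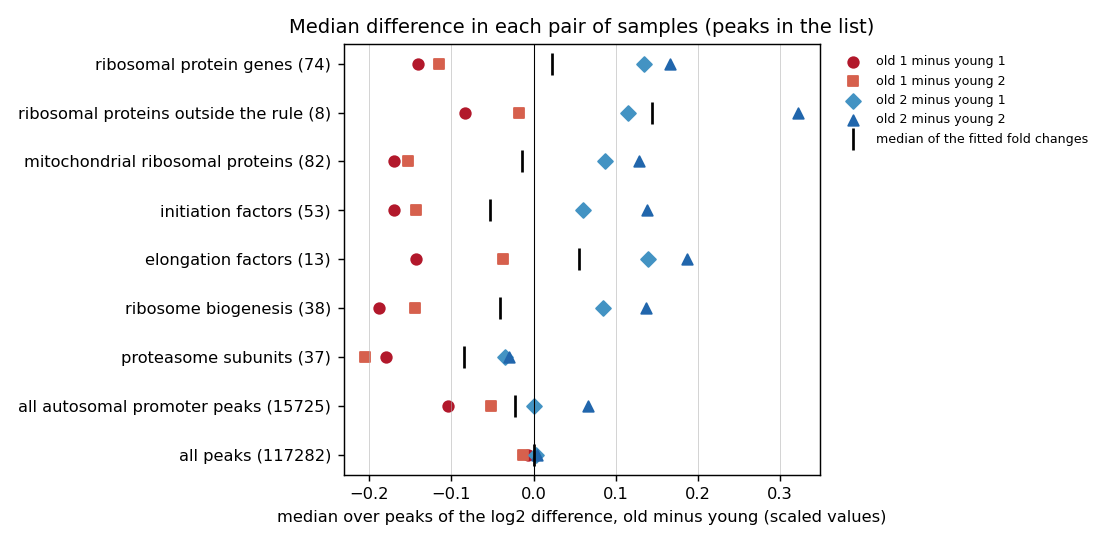
Median log2 difference, old minus young, over the peaks of each list (number of peaks in brackets) for the 4 pairs of samples, on scaled values. At the ribosomal protein genes, pairs with old sample 1 are at -0.14 and -0.12 and pairs with old sample 2 at 0.13 and 0.17, and only the proteasome list has all 4 pairs below 0.

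The direction of the median depended on which old sample was used. Old sample 1 gave medians of -0.14 and -0.12 against young samples 1 and 2, and old sample 2 gave 0.13 and 0.17. The same medians over all promoter peaks were -0.10, -0.052, 0.0010 and 0.066. At the 7 members on chromosome 11 the pairs with old sample 2 gave 0.23 and 0.35, and over all 1250 promoter peaks of that chromosome 0.16 and 0.25. At promoter peaks of the other autosomes they gave -0.011 and 0.050. Leaving the 7 members out moved the median over members from 0.022 to 0.019.

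Other genes of translation were examined in the same fit, and limma called none of their promoter peaks. The 82 peaks of mitochondrial ribosomal proteins had a median density of 33.0 and a median log2 fold change of -0.015, with 1 peak higher and 5 lower at an unadjusted p under 0.05. The 53 peaks of initiation factors had a median of -0.053, with 0 higher and 1 lower, and the 38 of ribosome biogenesis factors had -0.040, with 1 higher and 0 lower. The 13 peaks of elongation factors had 0.055, with none past that p. The 8 peaks of ribosomal proteins outside the naming rule, among them Fau and Rack1 and the paralogues such as Rps27l, had 0.14, again with none. The 37 proteasome subunit peaks, taken as another set of subunit genes active in all cells, had -0.084, with 0 higher and 1 lower. Pairs with old sample 1 were below 0 and pairs with old sample 2 above 0 in each of these lists except the proteasome, where all 4 medians were below 0, between -0.21 and -0.030.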

How the data were processed

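ATAC-seq of 2 old and 2 young MSC samples was analysed. The authors deposited 1 score per peak and sample under the name RPKM. The values show no division by peak length, and their scaling to the library total is inferred. Per the labels, reads were mapped to mm10 with Bowtie2 and Picard was used. The paper's methods, written for the oxygen experiment, add a mapping quality of at least 15, duplicate removal, chromstaR peaks (bins of 300 bp, steps of 100 bp) and edgeR with RLE factors for the oxygen test. Whether the ageing samples were processed in the same way was not given in the sources used here.

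Values were divided by RLE factors, and log2(value + 1) was fitted on all 117282 peaks with limma 3.58.1 in R 4.3.3 (eBayes with trend and robust moderation, Benjamini-Hochberg adjustment, threshold 0.01), after the fit had been tested on simulated data. Fold changes on this scale understate the change of weak peaks. Tables were made with Python 3.11.15, pandas 2.3.3, numpy 2.4.6 and scipy 1.17.1, and figures with matplotlib 3.10.9. Coordinates are mm10 (GRCm38). Peaks overlapping several starts were counted once. Members and lists were chosen with earlier results of these data known. Named peaks were the 5 largest rises and falls, the 5 highest and lowest densities, the genes with more than 1 peak, and Rplp0, Rplp1, Rplp2, Rpsa, Rps27a, Rpl5, Rpl11, Rps6, Rps19, Rpl3, Rpl22, Rpl38, Rpl10a and Rpl13a. Some of the peaks this rule names are not reported here and are left out of the plots of single peaks. Rps16 and the other peaks that a single left-out sample turned into calls, Rpl12, Rpl23a, Rpl27 and Rps18, as well as the neighbours listed, were chosen after their values were seen.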

Additional observations from a re-analysis of the deposited data

How the results depend on the processing

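The count of 0 members called held under every alternative that kept all 4 samples, namely the values as deposited, equal total signal, quantile normalization, pseudocounts of 0.1 and 5, a filter at the lower quartile, plain moderation, the replicate block, limma-voom, promoter windows of 500 bp (73 peaks) and 2 kb (79 peaks) and an adjusted p under 0.05. The share of all peaks called at 0.01 was 0 with plain moderation, 1.18% as deposited and 1.08% with the replicate block. It was between 0.0171% and 0.0810% with equal total signal, quantile normalization, either pseudocount, the filter and limma-voom. At such shares a count of 0 among 74 peaks says little about the members. Leaving out 1 sample gave 0 to 7 members higher and 0 to 1 lower, and at an unadjusted p under 0.05 gave 0 to 21 higher and 0 to 16 lower, where all peaks gave 13.5% and 15.8% without old sample 1 and 8.06% and 9.72% without old sample 2. At an unadjusted p under 0.05, the values as deposited gave 0 higher and 8 lower (1.70% and 18.5% of all peaks). With limma-voom the counts were 2 and 0 (10.2% and 6.80% of all peaks), and with the 2 kb window 2 and 2. Equal total signal, quantile normalization, plain moderation and the replicate block each gave 1 and 0. Under these settings, between 6.86% and 8.14% of all peaks were higher and between 8.04% and 8.39% lower. The replicate block is an analysis paired by sample number, which the labels do not tie to a shared preparation. The deviations of samples with the same number from their groups correlated at -0.0993, and the block raised the calls among all peaks from 66 to 1269 with 0 members called. The median log2 fold change was 0.022 with the replicate block, -0.27 as deposited and between -0.13 and 0.14 with 1 sample left out. The median density was between 30.2 and 35.0 with 1 sample left out. Of 324 alternative fold changes of 25 named peaks, 32 turned direction and 2 passed the threshold. As deposited, where all peaks shift by -0.27, the log2 fold change became -0.023 at Rpl35a, -0.043 at Rpl10a, -0.17 at the upstream Rps10 peak, -0.16 at Rpl11, -0.039 at Rplp1, -0.21 at Rpsa, -0.21 at Rps27a, -0.20 at Rpl38, -0.045 at the downstream Rpl3 peak, -0.18 at the upstream and -0.24 at the downstream Rps14 peak. Quantile normalization gave 0.010 at Rps19 and 0.033 at Rplp0, equal total signal 0.013 at Rplp0, and limma-voom 0.033 at Rps19, 0.017 at Rpl22, 0.074 at Rplp0 and 0.031 at Rplp2. With 1 sample left out, the values ran from -0.043 to 0.54 at Rpl10a, from -0.43 to 0.56 at the upstream Rps10 peak, from -0.21 to 0.12 at Rps19, from -0.23 to 0.47 at Rpl11, from -0.42 to 0.027 at Rpl5, from -0.11 to 0.11 at Rplp0, from -0.10 to 0.018 at Rplp2, from -0.014 to 0.49 at Rplp1, from -0.018 to 0.18 at Rpsa, from -0.082 to 0.24 at Rps27a and from -0.15 to 0.26 at the downstream Rps14 peak. Over all peaks, the median log2 fold change was 0.077 with limma-voom, 0.021 with equal total signal and 0.010 with quantile normalization. The cause of these turns was not tested. A peak of 3 counts has a value between 0.921 and 1.06, and counts were lowest at the upstream Rps10 and Rpl3 peaks, with 14 to 67 a sample. In all, 6 of 74 members had under 100 counts in at least 1 sample.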
